A study of Arabidopsis thaliana with 8 samples.

Results

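The 10 genes described here code for the proteins that store iron in leaves, chelate it for transport, carry it between cells and across the vacuolar membrane, and set how strongly the iron deficiency response runs. They were taken by gene identifier from the 20690 genes in the deposited tables: the ferritins FER1, FER3 and FER4, the nicotianamine synthases NAS1, NAS3 and NAS4, the Yellow Stripe-Like transporters YSL1 and YSL3, the vacuolar iron transporter-like gene VTL1, and BRUTUS (BTS). All 10 were listed in all 8 libraries and passed the filter on low values. Poly(A) RNA was taken from leaves 5 to 9 of Arabidopsis thaliana, Col-0 background, at the age of 4 weeks. Soil-grown plants were kept at 22 °C under days of 16 hours and harvested 4 hours after first light. There were 4 libraries of wild type (WT) and 4 of ABI3:MTA (mta). MTA is the methyltransferase that places N6-methyladenosine in mRNA, and ABI3:MTA plants carry a loss-of-function mta allele with an MTA transgene driven by the ABI3 promoter, which is active in embryos and lets them survive. Whether each library stands for its own plants is not in the labels, and the p-values speak only for the spread among these 8 libraries.

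Iron is needed for photosynthesis and respiration and is harmful when free, because it feeds the formation of reactive oxygen. Leaf cells hold excess iron inside ferritin shells in the plastid or move it into the vacuole, and they keep mobile iron bound to chelators such as nicotianamine, which YSL proteins carry across the plasma membrane. Ferritin transcripts are known to rise when iron is plentiful and under oxidative stress, whereas BTS transcripts are known to rise when iron is short.

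Values are normalised read counts, that is the deposited normalised values per gene, rescaled between libraries. MTA was measured first, as the gene the genotype targets. Its normalised read counts were 66.0, 84.7, 70.5 and 68.8 in WT 1 to WT 4 and 41.0, 61.3, 59.2 and 42.7 in mta 1 to mta 4. Every mta library lay below every WT library. The log2 fold change, mta minus WT, was -0.52 (SE 0.15, limma adjusted p = 0.0312), and the adjusted p missed the threshold of 0.05 without WT 2, WT 3, WT 4 or mta 1. The labels do not place the lesion, so reads from the mutant allele and the transgene cannot be told apart. ABI3 itself was listed in no library.

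The gene values of a library came to 17132913 to 25377345 steps, which is the depth in reads only if 1 step is 1 read, and that was not established. The first principal component held 51.7% of the variance and separated the genotypes, and the second held 26.2%, on which mta 4 lay opposite to WT 1 and mta 1. Of the 18328 genes tested, 4842 passed an adjusted p of 0.05, which is 26.4%: 2436 were higher in mta (13.3%) and 2406 lower (13.1%). The median log2 fold change over tested genes was -0.02. With the authors' scaling alone it was -0.16, and the split was 1671 higher and 4249 lower.

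Sequence before the coding region is shown for the 3 ferritin genes and BTS, because these hold the G-box, a motif searched for by name. The G-box (CACGTG) is a known site for basic helix-loop-helix factors, among them the ILR3 and PYE regulators of iron genes. Letters were read on the strand of each gene from TAIR10.1 and both strands were searched. Capitals mark the G-boxes.
FER1, chr5:229720-229749, minus strand: atatccaccctcCACGTGgatctcaatcca
FER3, chr3:20816066-20816171, minus strand: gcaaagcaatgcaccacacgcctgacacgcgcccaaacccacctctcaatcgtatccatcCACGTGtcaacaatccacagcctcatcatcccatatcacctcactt
FER4, chr2:16833318-16833423, minus strand: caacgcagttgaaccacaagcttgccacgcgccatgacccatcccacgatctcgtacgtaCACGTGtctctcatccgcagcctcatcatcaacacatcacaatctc
BTS, chr3:6273800-6273941, plus strand: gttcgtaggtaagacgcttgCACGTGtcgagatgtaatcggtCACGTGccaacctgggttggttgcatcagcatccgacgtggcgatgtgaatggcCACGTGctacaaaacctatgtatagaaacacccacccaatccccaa

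In the 250 bases before the annotated start, G-boxes stood in 3 of the 10 genes, against 1780 of 27444 protein-coding genes (6.49%). FER3 had its G-box at position -76 and FER4 at -69. BTS had 3 G-boxes, at -146, -124 and -70, and 27 of the 27444 genes had 3 or more (0.0984%). FER1 had no G-box there. Its annotated start lies farther from its coding sequence, and its G-box fell inside the annotated leader, at position 315. Of the 27444 genes, 1859 (6.77%) had a G-box in their first 500 bases. Counted back from the start codon along the genome, the ferritin G-boxes were at like distances, with 137 bases between G-box and start codon in FER1, 121 in FER3 and 143 in FER4. In FER3 and FER4 the run cagcctcatcatc, of 13 bases, began 11 bases after the G-box. It was picked as the longest run shared by the printed FER3 and FER4 stretches. The 2 of the 27444 upstream windows that held it are those of FER3 and FER4 themselves, so this count is no test of the run. The phosphate-response motif P1BS (GNATATNC) was matched upstream of YSL3 at -93, against 1498 of 27444 genes (5.46%). Unlike the G-box, P1BS was not searched for in the leaders of the 10 genes, so a match there, as in the long FER1 leader, would have been missed. NAS1, NAS3, NAS4, YSL1 and VTL1 held neither motif in that upstream window. These are matches of letters, with no binding measured.

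**Figure D1:**
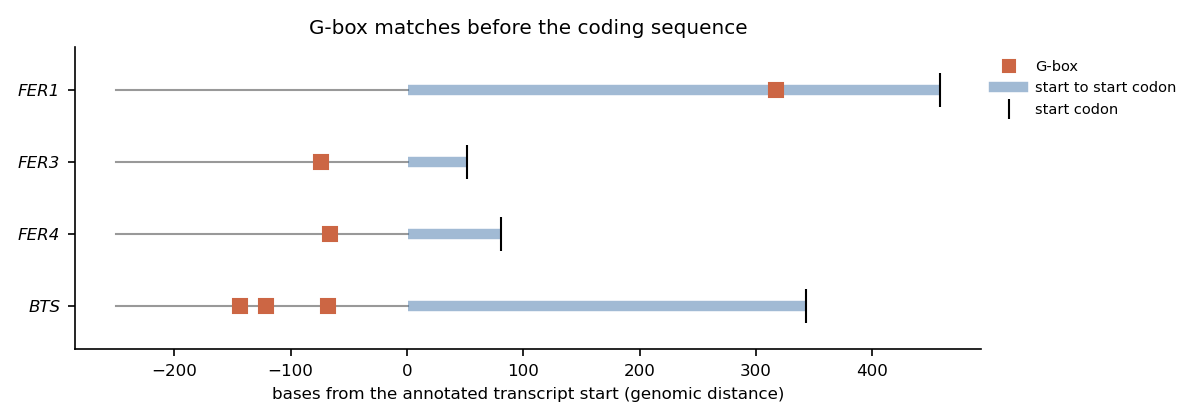
Positions of G-box matches before the coding sequence of FER1, FER3, FER4 and BTS, in bases from the annotated transcript start, with the stretch up to the start codon as a bar. The FER1 match at 315 sits inside that bar, and the FER3, FER4 and BTS matches sit upstream of the start.

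Iron storage transcripts were about 2 times as abundant in mta leaves. All 3 ferritin genes of the set rose, by 1.99- to 2.13-fold, and no mta library overlapped a WT library for any of them. Of the 10 genes, 7 were higher and 2 lower in mta and 1 did not pass, and the groups did not overlap in 7 higher and 2 lower genes. Of all tested genes 26.4% were called, 13.3% higher and 13.1% lower, and 28.4% did not overlap, 13.8% higher and 14.6% lower. The median log2 fold change was 0.72 over the 10 genes and -0.02 over all tested genes. The 10 genes were chosen with earlier results of these data known, so these contrasts with all tested genes are a description. In whole leaves a change in the cells that express a gene and a change in RNA per cell cannot be told apart.

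FER1 (AT5G01600, chr5:227953-230051, minus strand) codes for the main ferritin of leaves. Its normalised read counts were 1069, 849, 906 and 985 in WT 1 to WT 4 and 2240.1, 1754, 1984 and 1689 in mta 1 to mta 4. The lowest mta library stood well above the highest WT library. The means were 953 ± 95.7 and 1917 ± 250.1 (SD, n = 4 each), a log2 fold change of 1.0 (SE 0.11, 95% interval 0.75 to 1.26, limma adjusted p = 0.000141), and 586 of the tested genes had a higher one. A long noncoding RNA gene, AT5G01595, lies on the opposite strand and overlaps FER1 over 1334 bases. The kit keeps strand, per the labels, but the strand setting of the counting is not given in the sources used here. AT5G01595 had 22.2 to 29.5 normalised reads in WT and 23.6 to 29.1 in mta, a small fraction of the FER1 level.

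FER3 (AT3G56090, chr3:20813904-20816035, minus strand), another plastid ferritin of vegetative tissue, had normalised read counts of 98.7, 94.5, 102 and 99.2 in WT. In mta 1 to mta 4 they were 227, 191, 205 and 169. The WT libraries were nearly level, and the mta libraries spread more widely above them. That is a log2 fold change of 0.99 (SE 0.11, limma adjusted p = 9.05e-05).

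FER4 (AT2G40300, chr2:16831109-16833294, minus strand) codes for a ferritin found in plastids and mitochondria. Its normalised read counts were 169.8, 138, 142 and 144 in WT and 367, 289, 344 and 274 in mta. WT 1 was the highest WT library and mta 1 the highest mta library, as for FER1. FER4 had the highest log2 fold change of the 10 genes, 1.09 (SE 0.12, limma adjusted p = 9.93e-05). Its annotated end overlaps AT2G40290 over 118 bases of the same strand, and that neighbour had 185 to 261 normalised reads in WT and 213 to 228 in mta.

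Per kb of transcript, the summed level of the 3 ferritins was 866 ± 78.6 in WT and 1759 ± 229 in mta, a ratio of 2.03. The shares of the sum moved little. FER1 was 77.3 ± 0.897% of it in WT and 76.7 ± 0.458% in mta, FER4 was 13.7 ± 0.527% and 14.5 ± 0.369%, and FER3 was 8.97 ± 0.739% and 8.83 ± 0.309%. The FER4 share ranged from 13.0 to 14.1% in WT and from 14.2 to 15.0% in mta, without overlap, whereas the FER1 and FER3 shares overlapped. FER2, the ferritin of seeds, did not pass the filter. It was listed in WT 2 at 2.37 and WT 4 at 1.20, and in mta 1 to mta 4 at 3.13, 4.71, 4.27 and 4.83 normalised reads. Every mta value lay above every WT value, all within a few reads of the lowest value listed.

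**Figure D2:**
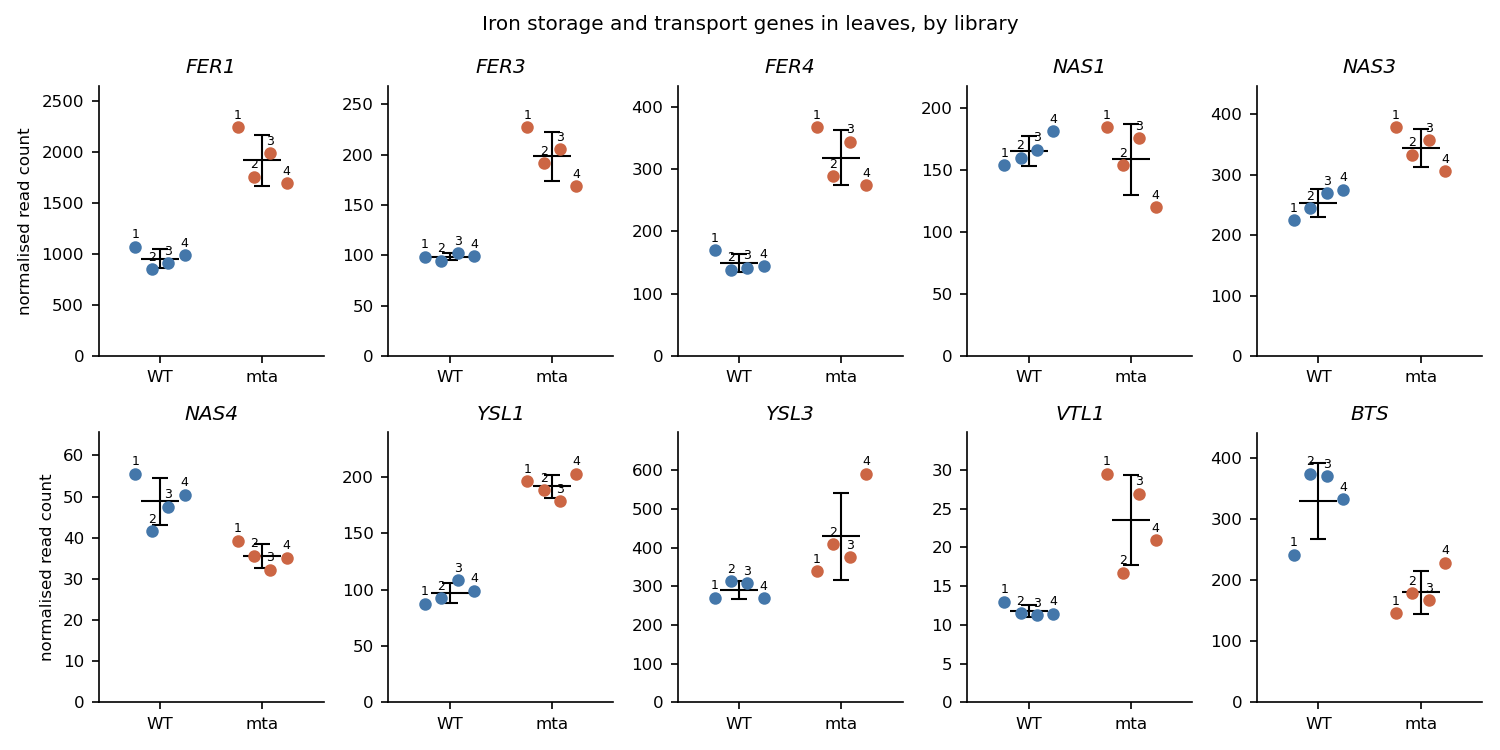
Normalised read count of each of the 10 genes in every library, WT and mta, on a linear axis from 0, with the mean and SD of 4 libraries per group as black bars. Only NAS1 has groups that overlap, and YSL3 has 1 high mta library, mta 4 at 591.

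Nicotianamine synthases make the chelator nicotianamine from S-adenosylmethionine. The 3 genes differed in direction: NAS3 rose, NAS4 fell, and NAS1 did not pass the test.

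NAS3 (AT1G09240, chr1:2984829-2986231, plus strand), the most abundant of the 3 in these leaves, had normalised read counts of 225, 245, 269 and 275 in WT and 379, 333, 357 and 305 in mta. All mta libraries lay above all WT libraries, with mta 4 nearest to them. Its log2 fold change was 0.44 (SE 0.10, limma adjusted p = 0.0101), or 1.35-fold.

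NAS4 (AT1G56430, chr1:21136835-21138277, plus strand) had 55.5, 41.7, 47.5 and 50.4 normalised reads in WT and 39.3, 35.6, 32.2 and 35.2 in mta. The groups did not overlap, but WT 2 and mta 1 were close. NAS4 had a log2 fold change of -0.44 (SE 0.12, limma adjusted p = 0.0237). The adjusted p missed the threshold without WT 3, WT 4, mta 2 or mta 3 (0.0541 to 0.0726) and with upper-quartile scaling (0.0508).

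NAS1 (AT5G04950, chr5:1457641-1459039, minus strand) had 154, 159.9, 166 and 181 normalised reads in WT and 184, 154, 176 and 120.2 in mta. The groups overlapped throughout, with mta 1 the highest and mta 4 the lowest of all 8. The log2 fold change was -0.08 (95% interval -0.37 to 0.22, limma adjusted p = 0.712) and its sign turned without mta 4, to 0.050. NAS2 was listed in no library.

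Per kb, the summed level of the 3 NAS genes was 333 ± 23.9 in WT and 383 ± 43.4 in mta. NAS3 supplied 51.9 to 55.8% of the sum in the WT libraries and 62.9 to 66.4% in the mta libraries. NAS4 supplied 9.09 to 12.5% and 5.54 to 7.43%, and NAS1 34.6 to 36.0% and 26.2 to 31.2%. For each of the 3 shares the groups did not overlap.

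YSL1 and YSL3 are plasma membrane transporters of iron bound to nicotianamine, expressed along leaf veins and known for moving iron out of leaves and into seeds. Both rose in mta.

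YSL1 (AT4G24120, chr4:12524186-12527347, plus strand) had 87.6, 92.1, 108 and 99.0 normalised reads in WT. The mta libraries had 196, 188, 178 and 203. Both groups were tight and far apart. With a log2 fold change of 0.98 (SE 0.10, limma adjusted p = 6.47e-05), YSL1 had the smallest adjusted p of the 10 genes.

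YSL3 (AT5G53550, chr5:21755251-21758950, plus strand) had 271, 314, 308 and 269.9 normalised reads in WT and 340.1, 409, 376 and 591 in mta. The groups did not overlap, and mta 4 stood far above the other mta libraries. YSL3 had a log2 fold change of 0.53 (SE 0.15, limma adjusted p = 0.0276), and 0.37 without mta 4. The adjusted p missed the threshold without WT 1, WT 4, mta 2 or mta 3 (0.0588 to 0.0862) and with the authors' scaling (0.151). YSL1 made up 25.8 ± 1.88% of the summed YSL1 and YSL3 level per kb in WT and 32.3 ± 4.61% in mta, where mta 4 at 26.3% lay within the WT range.

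**Figure D3:**
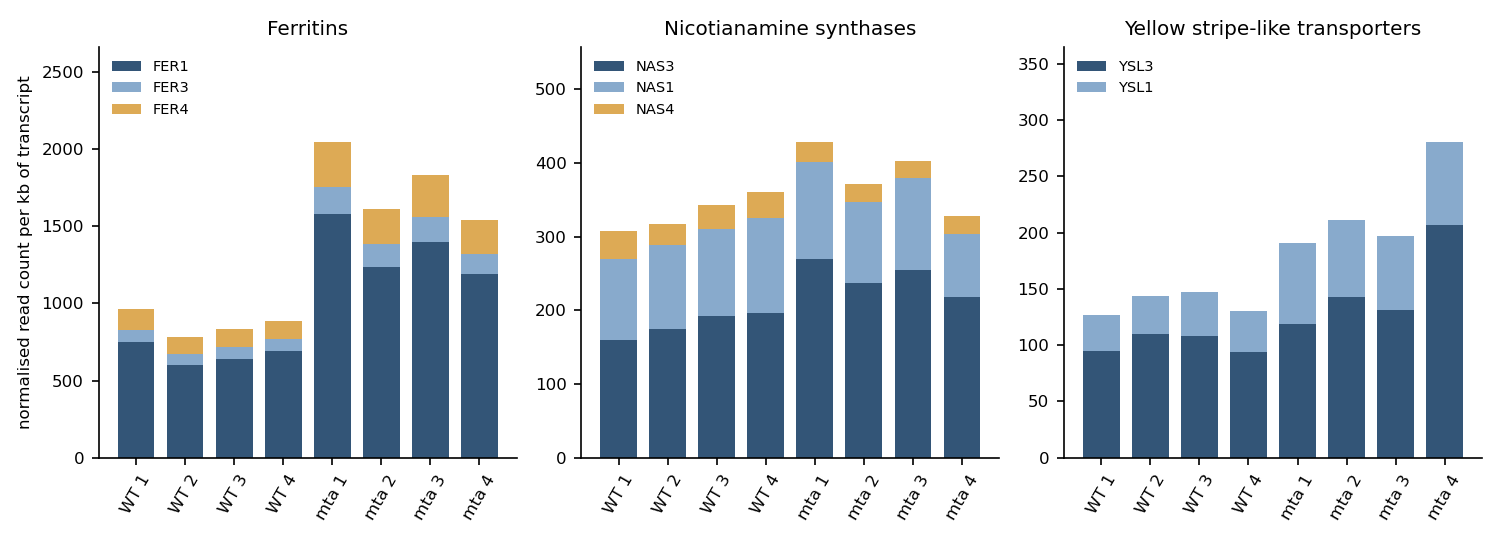
Summed normalised read count per kb of transcript for the ferritin, nicotianamine synthase and YSL genes in each of the 8 libraries, with each gene as a segment of the bar. The ferritin bars are about 2 times as tall in mta with nearly the same segments, whereas the NAS3 segment makes up more of the mta bars.

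VTL1 (AT1G21140, chr1:7404328-7405426, plus strand) codes for a protein of the vacuolar membrane that moves iron into the vacuole. It was the least abundant of the 10, with 13.0, 11.5, 11.2 and 11.5 normalised reads in WT and 29.5, 16.8, 27.0 and 20.9 in mta. The WT libraries were nearly level and the mta libraries scattered above them. VTL1 rose by 0.91 on the log2 scale (SE 0.18, limma adjusted p = 0.00451). Of 1050 windows of 50 bases in its transcript, 4 (0.381%) also occurred in another VTL transcript, and the other 9 genes shared none with their families.

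BTS (AT3G18290, chr3:6273966-6280562, plus strand) codes for an iron-binding E3 ubiquitin ligase that marks bHLH factors, among them ILR3 and bHLH115, for breakdown and so restrains the iron deficiency response. Its normalised read counts were 242, 375, 371 and 333 in WT 1 to WT 4 and 146, 179, 168 and 229 in mta 1 to mta 4. The highest mta library, mta 4, came just under the lowest WT library, WT 1. The log2 fold change was -0.87 (SE 0.17, 95% interval -1.23 to -0.50, limma adjusted p = 0.00327), and 371 tested genes had a lower one. BTS has the longest transcript of the set, and libraries differed in their trend along transcript length, with slopes from -0.18 to 0.16 log2 units per log2 of length in WT and from -0.21 to 0.21 in mta. With that trend subtracted from each library the log2 fold change was -0.74 (limma adjusted p = 3.95e-05).

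The order of levels per kb changed between the genotypes. In WT, FER1 at 670 led NAS3 at 181, then came FER4, NAS1 and YSL3, whose neighbours in that order overlapped, then FER3 and BTS, which overlapped, YSL1 and NAS4, which overlapped, and VTL1 at 10.7. In mta, FER1 at 1349 was followed by FER4 and NAS3, which overlapped, then FER3, YSL3 and NAS1, whose neighbours overlapped, YSL1, BTS, and last NAS4 and VTL1, which overlapped. BTS stood above YSL1 in every WT library and below it in every mta library, at 73.5 against 35.3 per kb in WT and 40.1 against 69.8 in mta.

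Likeness across all 8 libraries was measured as the root mean square difference of log2 values, each gene centred on its own mean, over 17503 genes. The 3 genes nearest to FER1 were AT2G03505 (0.0543 log2 units), the adenosine phosphosulfate kinase gene AKN2 (0.0554) and the annexin gene ANNAT4 (0.0605), and FER4 came next (0.0650). For FER4, FER1 was the nearest gene of all, whereas FER3 was nearest to PMAT1 (0.0536), AT2G03505 (0.0645) and SAPX (0.0655), with FER1 in place 13 (0.0894). YSL1 was nearest to PMH1 (0.0553), CRK36 (0.0734) and PRMT3 (0.0802). Nearest to BTS were AT1G59910 (0.0699), AT1G03740 (0.0815) and TOC120 (0.0838).

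The other genes of iron handling were read from 6 lists of 79 genes. Of their 61 tested genes, 20 passed the test (32.8%), against 26.4% of all tested genes, with 12 higher (19.7%, against 13.3%) and 8 lower (13.1%, against 13.1%). Of the 12 higher genes, bHLH11 and FRD3, given below, passed the filter only through their mta values. With the authors' scaling the split was 7 higher and 19 lower. The lists too were chosen with earlier results of these data known, so these shares are a description.

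Of the 14 other genes of the same families, 8 were tested: 2 rose, 1 fell, and the median log2 fold change was 0.08. Under the authors' scaling 0 rose and 2 fell. YSL6, a transporter of the chloroplast envelope, fell from 469 ± 42.3 to 295 ± 41.4 normalised reads (log2 fold change -0.67, SE 0.12, limma adjusted p = 0.00189). YSL8 (0.45, adjusted p = 0.0369) and YSL2 (0.35, adjusted p = 0.0365) were higher, but YSL8 missed the threshold in 8 and YSL2 in 10 of the 18 alternatives. For YSL2 these took in the removal of any single library but mta 4, and for YSL8 of any but WT 2 and mta 4. BTSL1, a relative of BTS, was listed in WT 1 to WT 4 at 2.54, 1.02, 2.35 and 1.67 normalised reads and in no mta library. Those levels are near the lowest value the tables list, which was 1.01 to 1.26 before rescaling.

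Regulators of the iron deficiency response numbered 17, of which 10 were tested, with 1 higher, 1 lower and a median log2 fold change of -0.12. Under the authors' scaling 1 was called higher and 4 lower. IMA3, a small peptide that promotes iron uptake, had 36.8, 39.3, 35.3 and 34.4 normalised reads in WT and 19.1, 24.6, 24.7 and 14.0 in mta. The groups did not overlap (log2 fold change -0.83, SE 0.18, limma adjusted p = 0.00619). As annotated, the IMA3 gene has a transcript of 1995 bases and overlaps AT2G30760 and AT2G30770, whose part in these values was not tested. The higher gene was bHLH11, a repressor in the same response, at 2.74 ± 0.822 normalised reads in WT and 7.83 ± 1.94 in mta (1.24, SE 0.24, adjusted p = 0.00374, and 0.72 with a pseudocount of 5). It reached the filter's value of 3 in 2 WT and 4 mta libraries, so it was tested only through the group where it is high, and its call is a description. The bHLH genes ILR3, bHLH104 and bHLH115 did not pass, at -0.15, -0.20 and -0.23, and neither did PYE at -0.21. The bHLH38 and bHLH101 genes, which mark iron shortage, were too low to test: bHLH101 was listed in the 4 WT libraries at 1.35 to 2.63 normalised reads and in no mta library. Others as low did not share that pattern: bHLH100 was listed in 3 WT and 2 mta libraries, bHLH38 in 1 of each group, IMA2 in 3 of each group and IMA1 in 1 WT and 2 mta libraries.

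Among 21 other genes of iron transport and reduction, 17 were tested, with 4 higher, 2 lower and a median of -0.04. That split became 2 higher and 4 lower with the authors' scaling. FRO7, the chloroplast ferric reductase, fell from 788 ± 76.4 to 507 ± 20.7 normalised reads (log2 fold change -0.63, SE 0.09, limma adjusted p = 0.00076), and FRO6, a leaf ferric reductase of the plasma membrane, from 2744 ± 317 to 1929 ± 135 (-0.50, adjusted p = 0.00622). FRD3, a citrate exporter, had 1.26 ± 0.175 normalised reads in WT and 4.54 ± 1.08 in mta (1.28, adjusted p = 0.00305, and 0.60 with a pseudocount of 5). It reached the filter's value of 3 in 0 WT and 4 mta libraries, so it was tested only through the group where it is high, and its call is a description. The mitochondrial iron transporter MIT2 rose from 75.8 ± 10.7 to 118 ± 16.3 (0.64, adjusted p = 0.00684). NRAMP1 (0.29, adjusted p = 0.0417) and IREG3 (0.28, adjusted p = 0.0466) missed the threshold in 10 of 18 alternatives each, among them leaving out any single library but mta 4. OPT3, which loads iron into the phloem, was at 0.32 and did not pass (adjusted p = 0.0547).

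All 14 genes of iron-sulfur cluster assembly were tested, with 1 higher, 3 lower and a median of -0.07. Under the authors' scaling it was 0 higher and 6 lower. FH, the mitochondrial frataxin, fell from 74.0 ± 10.4 to 49.2 ± 3.19 normalised reads (log2 fold change -0.57, limma adjusted p = 0.00596), and the plastid factors SUFA (-0.45, adjusted p = 0.00941) and SUFC (-0.53, adjusted p = 0.0114) fell. NFS2, the plastid cysteine desulfurase, was higher at 0.37 (adjusted p = 0.0256), and missed the threshold in 8 alternatives, among them the removal of any single library but WT 4 and mta 4.

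S-adenosylmethionine synthetases, which supply the substrate of NAS enzymes, numbered 4, and 2 rose: MAT4 by 0.59 (SE 0.13, limma adjusted p = 0.00695) and MAT3 by 0.64 (SE 0.14, adjusted p = 0.00777). The list's median was 0.46. Of 9 genes that remove superoxide and peroxide 8 were tested, with 2 higher, 1 lower and a median of 0.10, and 2 higher and 3 lower with the authors' scaling. FSD1, the iron superoxide dismutase, rose from 2811 ± 395 to 5265 ± 1166 normalised reads (log2 fold change 0.89, SE 0.16, adjusted p = 0.00224), with every mta library above every WT library, and the ascorbate peroxidase APX1 rose (0.55, adjusted p = 0.0115). The catalase CAT1 was lower (-0.36, adjusted p = 0.0283) but missed the threshold in 7 of the 18 alternatives, among them without WT 2, WT 3, WT 4 or mta 2, with upper-quartile scaling and with WT 2 and WT 3 averaged.

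**Figure D4:**
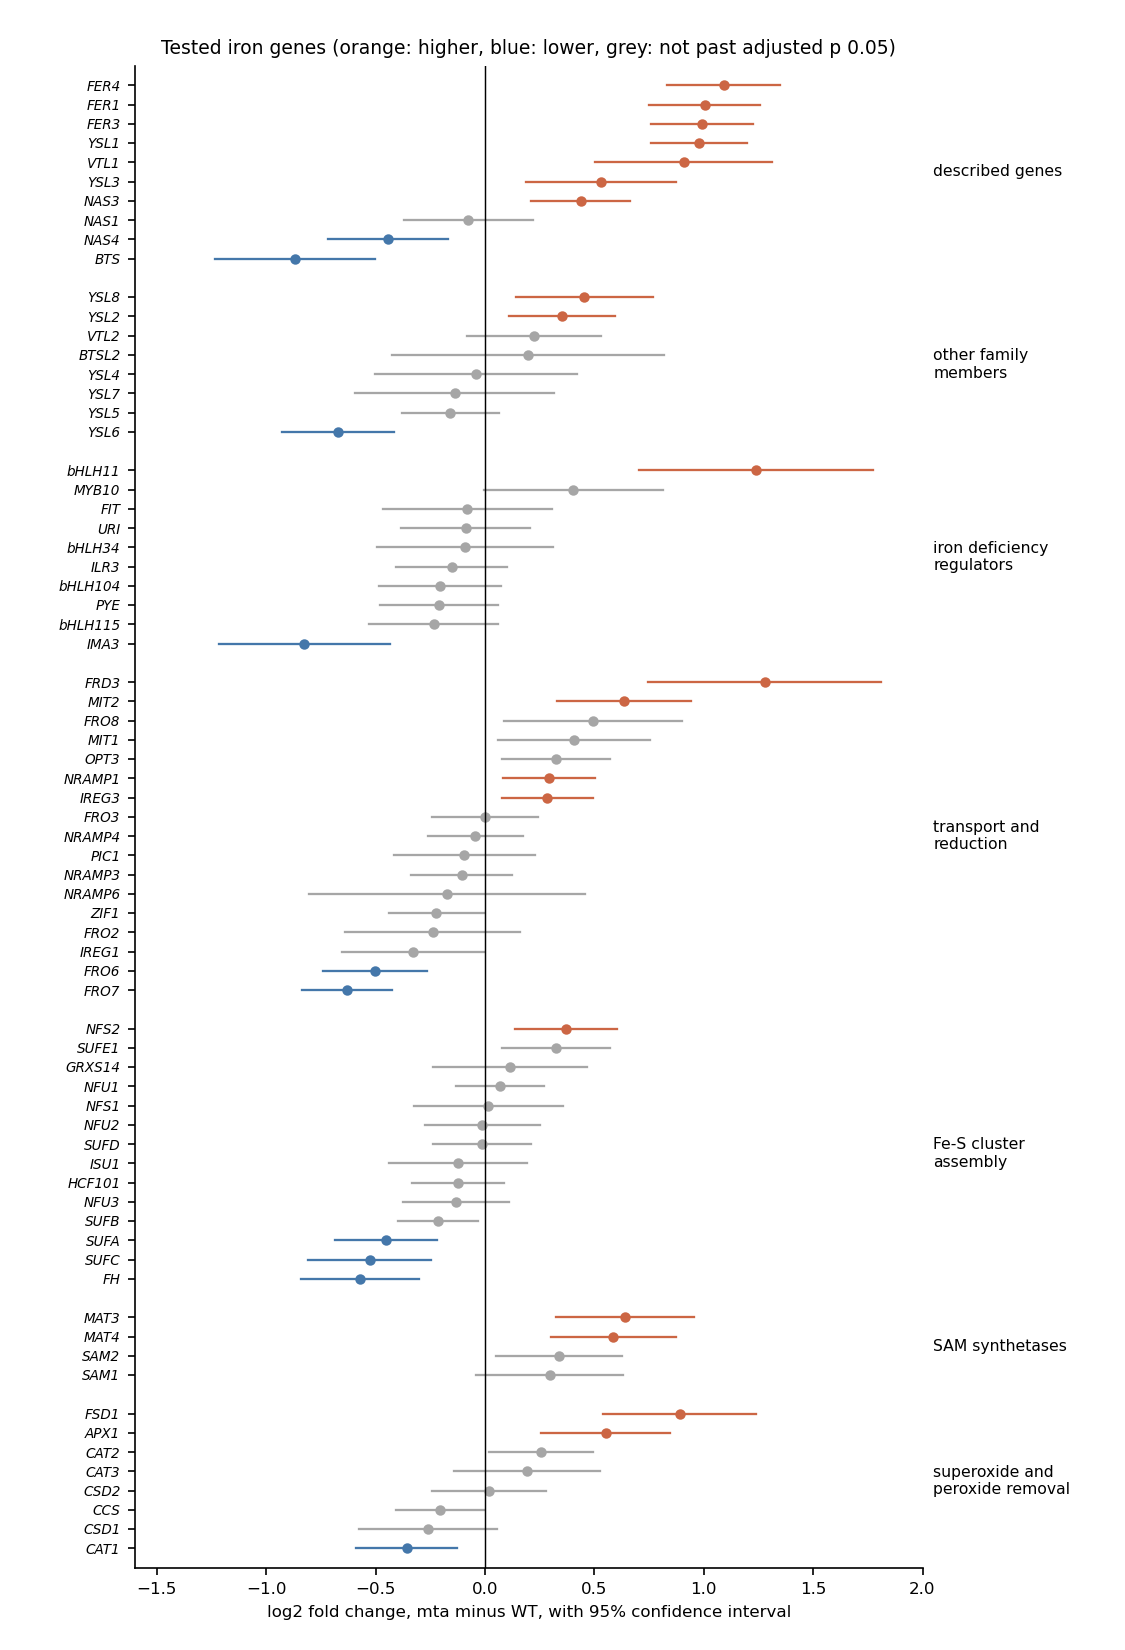
Log2 fold change, mta minus WT, of the tested iron genes by list, with 95% confidence intervals, coloured by whether the adjusted p was under 0.05. The 10 genes of the set lie mostly to the right of 0, from -0.87 for BTS to 1.09 for FER4, the 4 S-adenosylmethionine synthetase genes all lie to the right, and the other 5 lists lie on both sides.

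Markers of leaf cell types also moved between the genotypes. The summed normalised read count of 5 mesophyll markers, all listed, ranged from 312162 to 394606 in WT and from 402874 to 663280 in mta. CA1 and RBCS1A rose (log2 fold changes 0.77 and 0.87), whereas CAB1, RCA and LHCB2.1 did not pass (limma adjusted p = 0.231, 0.0645 and 0.0648). Most of the sum was RBCS1A and CAB1, with WT means of 134812 and 137166 in a mean sum of 347394. RBCS1A has near-identical copies, so its own value is uncertain. The sum of 14 vasculature markers, all listed, ranged from 4235 to 4657 in WT and from 5608 to 6213 in mta. Its largest parts were PP2-A1, SUC2 and AHA3, with WT means of 1481, 895 and 889 in a mean sum of 4366. Of these AHA3 did not pass (limma adjusted p = 0.869). Within that list SWEET11 (0.83), PP2-A1 (0.60), XCP2 (0.54), SWEET12 (0.40) and SUC2 (0.33) were higher, ATHB8 was lower (-0.52), and 8 did not pass. For 9 epidermis and guard cell markers, all listed, the sum ranged from 2485 to 2583 in WT and from 2208 to 2479 in mta. Most of it was FDH, with a WT mean of 1352 in a mean sum of 2523, which did not pass (limma adjusted p = 0.345). In that list PDF2 (-0.59) and GC1 (-0.39) were lower and FAMA (0.47) and MYB60 (0.52) higher. Several of these missed the threshold when single libraries were left out: SWEET12 without WT 4, GC1 without WT 4 or mta 2, FAMA without mta 3, SUC2 without any but WT 1 and mta 4, and MYB60 without any but WT 2 and mta 1. By an exact two-sided permutation test over 70 assignments, p was 0.0286 for each of these sums, the smallest the design can give, and 0.0357 adjusted over 5 lists. That p is reached when the groups do not overlap, which also held for 28.4% of all tested genes. Of 6 root markers 2 were listed, with sums of 6.53 to 9.32 in WT and 6.90 to 7.07 in mta (exact p = 0.143), and EXPA7, RHD6, CASP1 and IRT1 were at 0. Of 5 seed and embryo markers FER2 and SESA1 were listed, and CRU1, CRC and OLEO1 were at 0. The sums were 1.20 to 2.37 in WT and 3.13 to 6.02 in mta (exact p = 0.0286, adjusted 0.0357). Only FER2 was higher in mta, whereas SESA1 was at 2.22 in WT 1, 1.57 in WT 3 and 1.31 in mta 2. Neither gene passed the filter, and these values lie near the lowest listed. The part of these markers in the ferritin, NAS, YSL, VTL1 and BTS results was not tested.

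Under 18 other settings of scaling, filter, pseudocount and choice of libraries, FER1, FER3, FER4, NAS3, YSL1, VTL1 and BTS kept their direction and an adjusted p under 0.05. The log2 fold change of FER1 ranged from 0.86 to 1.07, that of YSL1 from 0.84 to 1.04 and that of BTS from -1.05 to -0.74.

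**Figure D5:**
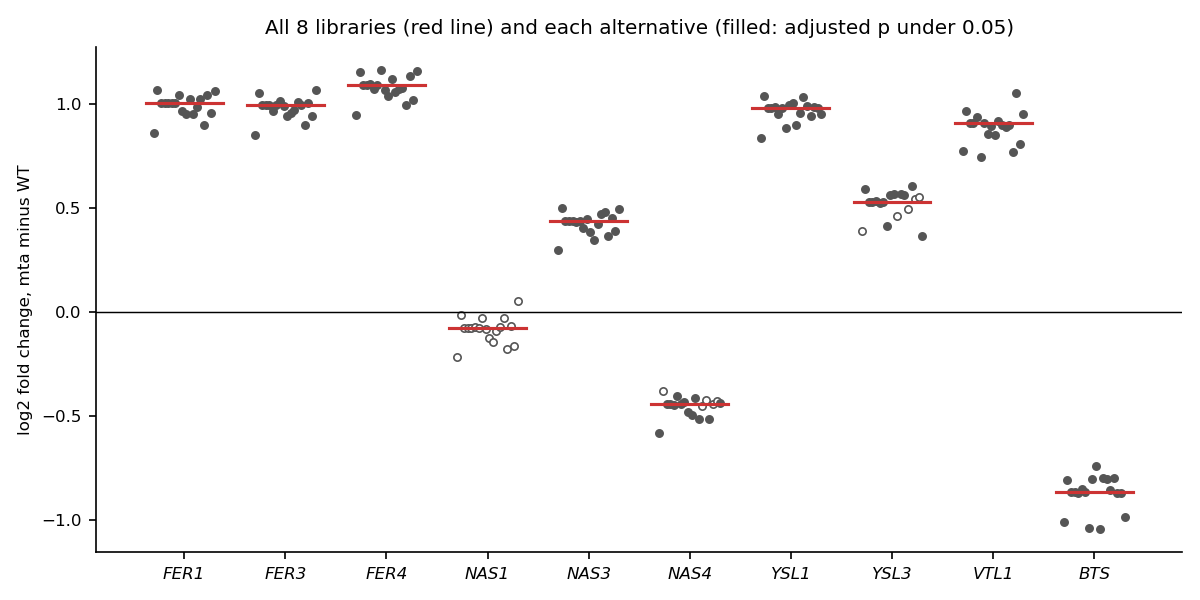
Log2 fold change, mta minus WT, of each of the 10 genes in all 8 libraries (red line) and under each of 18 alternatives (points, filled where the adjusted p was under 0.05). Open points stand for all NAS1 values and for 5 settings each of NAS4 and YSL3.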

How the data were processed

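The deposited tables give 1 signal value per gene and library: per the submitters' processing notes, which name STAR 2.4.0, HTSeq, DESeq2 and build TAIR10, and per the values, these are read counts divided by a factor for each library, with nothing below 1. Low values were all (100%) whole multiples, within 0.02, of a step equal to the lowest listed value divided by 3 or 4. With the lowest value itself as the step only 20.7 to 34.0% were whole (within 0.1). That share had to be low, because the lowest listed value is 3 or 4 steps, so it cannot decide whether 1 step is 1 read. Whole reads were not taken as recovered, no count test was run and limma was used. Rows without a gene were left out (no feature 4.92 to 5.97% of the total, ambiguous 0.359 to 0.406%, more than 1 alignment 6.06 to 9.07%). Unlisted genes counted as 0. Tested genes needed a value of 3 or more in 4 or more libraries. Between-library scaling used TMM factors (0.883 to 1.08). The model, limma 3.58.1 (R 4.3.3) with trend, took log2(value + 1) of all 18328 tested genes and genotype as its term, with Benjamini-Hochberg adjusted p under 0.05 as the threshold. The log scale understates changes of low genes. The fit was checked on simulated data.

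The 10 genes and the lists were chosen with earlier results of these data known. Beside the 10 genes, MTA and ABI3, the rule names up to 4 genes per list with the smallest adjusted p. Genes too low to test, and NRAMP1, IREG3, ILR3, bHLH104, bHLH115, PYE, OPT3, SUC2 and SWEET12, were added after their values were seen. CAB1, RCA, LHCB2.1, AHA3 and FDH are also given outside that rule. Levels per kb use the annotated transcript length. Gene models and sequence are those of TAIR10.1 from NCBI, and the deposited tables hold no coordinates. Figures were drawn with matplotlib 3.10.9.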

Additional observations from a re-analysis of the deposited data

Results flagged for a closer look

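VTL1 had 13.0 normalised reads in WT 1, the highest of the 4 WT libraries. The nearest WT library had 11.5 and the lowest 11.2, so the gap was 0.840 of the group's range. This was 1 of 20 groups of 4 libraries examined in the 10 genes, and chance alone sets off this rule in about 1 in 20 groups.

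Reads with more than 1 alignment, which enter no gene value, took a mean of 8.41% of the deposited total in mta (SD 0.493, n = 4) and 6.49% in WT (SD 0.423, n = 4). Every mta library was above every WT library (two-sided exact permutation p = 0.0286, the smallest this design allows).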

How the results depend on the processing

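Of the 10 genes, 6 to 7 were higher and 1 to 2 lower when each library was left out in turn. The libraries whose removal ended the call of YSL3 or NAS4 are named in the report. Over the same removals all genes called numbered 3193 to 6543, with 1532 to 3141 higher and 1561 to 3402 lower, and the 6 iron lists had 6 to 16 genes higher and 7 to 9 lower, against 12 and 8 with all libraries. Leaving out mta 2 gave the lowest total and leaving out mta 4 the highest. The log2 fold change of NAS1, -0.08 with all libraries, ranged from -0.18 to 0.050 and was above 0 only without mta 4 (adjusted p = 0.721). With the authors' scaling 4249 genes were lower, and the iron lists had 7 genes higher and 19 lower. With upper-quartile scaling 1 of the 10 genes was lower. WT 2 and WT 3 lay close together, at -35.2 and -35.1 on the first principal component and 15.8 and 13.4 on the second. With these 2 libraries averaged into 1, 3545 genes were called, 1825 higher and 1720 lower, and the iron lists had 8 higher and 7 lower. Of the 10 genes 7 stayed higher and 2 lower. Leaving out the 3 libraries WT 1, mta 1 and mta 4 at once gave 8397 calls, 3941 higher and 4456 lower, with 21 genes of the iron lists higher. The cause of these shifts was not tested.

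With the replicate number as a block, 7 of the 10 genes were higher and 2 lower, and 4516 genes were called in all. The block ended the calls of YSL2, YSL8, NRAMP1, IREG3 and CAT1 (adjusted p 0.0554 to 0.0815). Deviations of same-numbered libraries correlated at 0.47, 0.08, -0.20 and -0.35. The best match was mta 1 for WT 1, mta 4 for WT 2 and WT 3, and mta 3 for WT 4. With so few libraries these values cannot decide whether the numbers pair the samples. The edgeR and DESeq2 alternatives were not run, because whole reads were not taken as recovered. FER2, BTSL1 and FRD3, at under 6 normalised reads in every library, lie near the lowest listed values.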
